A study of Mus musculus with 4 samples.

Results

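Haem released from lysed red blood cells is taken up, split and cleared by a short chain of gene products, and the 8 genes described here, Hmox1, Hmox2, Blvra, Blvrb, Cd163, Slc48a1, Flvcr1 and Lrp1, encode that chain. They were found by symbol in the count tables, which list 40091 genes over the 4 libraries, and all 8 had at least 1 UMI (unique molecular identifier, a tag that counts captured RNA molecules) in every library. The genes had been chosen by their levels in the haemorrhage (COL) and saline (NS) libraries, with Hmox1 as the lead, so their COL and NS values are given below as a description and without a test. How the genes differ between cell types was tested, although the genes were chosen with earlier results of these data known.

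The study measured RNA in single nuclei of mouse thalamus to describe pain after thalamic haemorrhage. Adult C57BL6 mice, 7-8 weeks old, received collagenase IV (Coll IV, 0.01 U in 10 nl), which digests the vessel wall and causes bleeding, in the right ventral posteromedial and posterolateral nuclei of the thalamus (VPM and VPL; COL), or saline (NS), and tissue was taken 7 days later. Each library pooled 3 mice, with 2 libraries per group (NS 1, NS 2, COL 1, COL 2), so n = 2 per group wherever COL and NS are compared. Each cell type was tested against the other nuclei over all 4 libraries, and macrophages against microglia over the 2 COL libraries. Spread and tests describe these pools and not single mice. The labels name wild-type mice, and both groups underwent the injection.

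Nuclei passing the filters numbered 9673 and 10422 in the NS libraries and 5931 and 6265 in the COL libraries, with median depths of 6489, 4649, 8664 and 8691 UMIs. Library pairs shared 8 to 31 barcodes. Nuclei were clustered without the 8 genes and the related pathway genes, and clusters were named from marker genes, so each name means that the cluster resembled that type. Tcf7l2, a transcription factor of thalamic neurons, was found in 43.9% and 56.7% of NS neurons and in 79.2% and 62.4% of COL neurons. COL neurons were also deeper, with medians of 14083 and 14467 UMIs against 9407 and 8958 UMIs in NS. The glia were deeper in COL too. Microglia had medians of 4054 and 4335 against 2230 and 1995 UMIs, and astrocytes 5680 and 6621 against 3662 and 3273. Oligodendrocytes had 5217 and 5906.5 against 3162.5 and 2935 UMIs, and their precursors 7391 and 7843.5 against 4827.5 and 4350. Macrophage nuclei numbered 318 and 470 in the COL libraries but 2 and 5 in the NS libraries, and T and NK cells 53 and 79 against 9 and 4, so neither type was compared between groups. COL and NS nuclei of neurons, oligodendrocytes, oligodendrocyte precursors (OPC), astrocytes and microglia lay mostly in different clusters. The clusters with the larger NS share held 81.0% of NS and 6.97% of COL neurons, and across the other 4 types 77.1% to 99.8% of NS and 0.188% to 1.95% of COL nuclei, so a difference between groups in any of these 5 types compares different clusters. Pericytes and fibroblasts, in 1 cluster of 28 to 63 nuclei per library, were too few for a fit between groups, and their values are given apart. The endothelial gene Flt1 led that cluster, which held endothelial markers too, so its name covers vessel nuclei of mixed type. A cluster with neuronal markers that also had the T cell gene Cd247 among its leading genes was left out of the neurons, and it held 3.22% and 1.66% of NS nuclei and 12.1% and 3.69% of COL nuclei.

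Haem oxygenase opens the haem ring and releases biliverdin, carbon monoxide and iron. Hmox1 encodes the inducible enzyme, whose transcription is held down by the repressor Bach1 and driven by the stress factor Nrf2, and Hmox2 the constitutive enzyme. Biliverdin is reduced to bilirubin by the products of Blvra and Blvrb. Cd163 and Lrp1 encode surface receptors for the haemoglobin-haptoglobin and haem-haemopexin complexes, Slc48a1 carries haem out of the endosome or lysosome into the cytosol, and Flvcr1 exports haem from the cell.

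Hmox1 (ENSMUSG00000005413) lies on chromosome 8 from 75093621 to 75100589 on the plus strand in GRCm38, and no annotated gene overlaps it there or overlaps Blvra, Blvrb or Cd163. Over all nuclei it stood at 0.297 and 0.349 CPM (the UMIs of the gene divided by all UMIs of the sum, times 1e6) in NS 1 and NS 2 and at 35.3 and 30.2 CPM in COL 1 and COL 2. The COL libraries were far above the NS libraries and the groups did not overlap. In raw terms 23 and 24 UMIs in the NS libraries faced 2456 and 2101 in the COL libraries, a pooled ratio of 102 with a 95% counting interval of 76.6 to 139, and the fitted log2 fold change was 6.82 ± 0.28 (SE, edgeR). Each SE of a fit was worked back from its F statistic, as the absolute log2 fold change over the square root of F. It is not a spread measured between libraries, and no test of COL against NS is read from it for the 8 genes.

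Among the COL cell types, macrophages held the most Hmox1, at 866 and 327 CPM, or 4.09 and 1.63 UMIs per nucleus. The libraries differed by more than their counting error in this type. Macrophages made up 5.36% and 7.50% of COL nuclei but carried 53.0% and 36.6% of the Hmox1 UMIs. The highest count in a single nucleus was 58 UMIs in COL 1 and 38 in COL 2, whereas the median macrophage nucleus held 1.00 and 0 UMIs, so expression was uneven between nuclei.

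Microglia, the resident phagocytes of the brain, came next. Hmox1 was at 209 and 164 CPM in COL and at 0 in both NS libraries. Naming nuclei by marker score gave a lower COL mean, printed in the last section. With 0 UMIs in 321 and 344 NS nuclei, a count of 0 allowed a share of up to 0.935% and 0.872% of nuclei with a UMI (3 over the number of nuclei). Set against 3 UMIs over the NS group, the COL level was at least 88.0-fold higher. The median COL microglial nucleus held 0 UMIs, 5.91% and 5.08% of nuclei held 5 or more, and the highest counts were 40 and 36. The COL microglia included a dividing cluster with Top2a and Mki67 among its leading genes, and Hmox1 was higher there, at 310 and 237 CPM, than in the other COL microglial cluster, at 166 and 127 CPM. Both libraries showed the same order.

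Astrocytes, which support synapses and vessels, went from 0.427 and 0.554 CPM in NS to 69.4 and 35.4 CPM in COL, with a fitted log2 fold change of 6.64 ± 0.51. The NS values rest on 2 UMIs in each library. OPC held 22.1 and 22.3 CPM in COL against 0.475 and 0 CPM in NS, and because the NS libraries gave 1 UMI in all, the pooled ratio of 91.1 had a counting interval of 16.0 to 3634.

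Neurons and oligodendrocytes held the least. Neurons went from 0.319 and 0.209 CPM to 9.41 and 9.89 CPM, a log2 fold change of 5.32 ± 0.30. Oligodendrocytes, the myelinating cells, went from 0.136 and 0.801 CPM to 13.7 and 20.7 CPM, a log2 fold change of 5.06 ± 0.49. By mean CPM the order in COL was macrophages (596 ± 381, SD, n = 2), microglia (186 ± 31.8), astrocytes (52.4 ± 24.1), OPC (22.2 ± 0.158), oligodendrocytes (17.2 ± 4.90) and neurons (9.65 ± 0.337). The values of neighbours in this order did not overlap between libraries, and the closest were OPC and oligodendrocytes in COL 2, at 22.3 and 20.7 CPM. The cluster named pericytes and fibroblasts, the wall and connective cells of vessels, stood at 37.3 and 14.1 CPM in COL from 8 and 4 UMIs. In NS it was at 0 and 6.52 CPM from 0 and 1 UMI, and it has no clear place in the order. Its endothelial markers summed to 1186 and 1096 CPM in NS and 2517 and 1517 CPM in COL. The pericyte and fibroblast markers summed to 3672 and 1748 against 2158 and 1969 CPM, so these are values of mixed vessel nuclei.

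**Figure D1:**
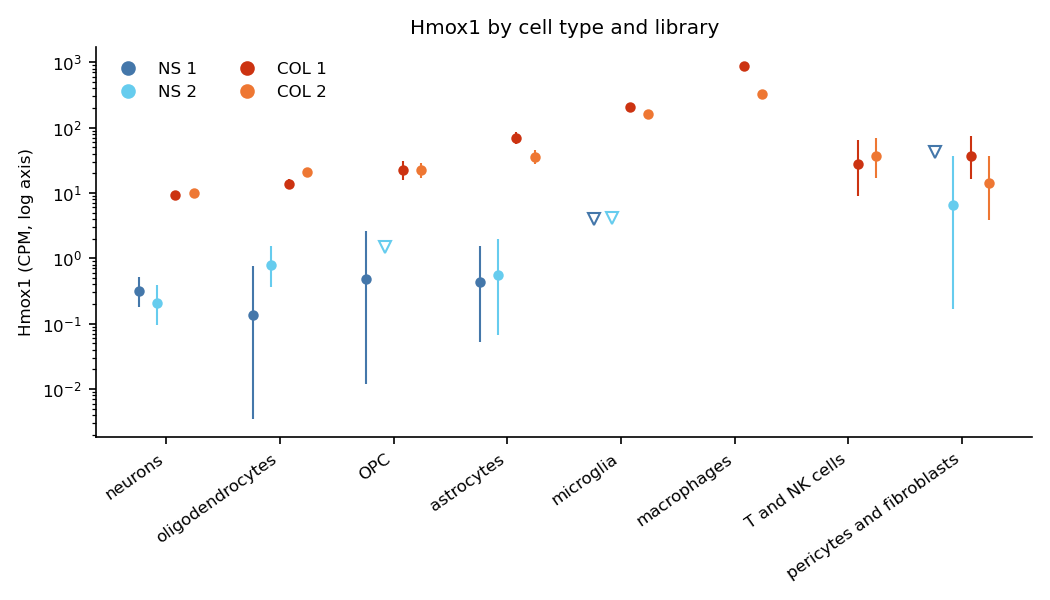
Hmox1 in CPM on a log axis for each cell type with at least 20 nuclei in the library, with 1 point per library and 95% counting intervals. Open triangles mark libraries with 0 UMIs, drawn at the level of 3 UMIs. COL points lie above NS points in neurons, oligodendrocytes, OPC, astrocytes and microglia, the marker of NS 1 pericytes and fibroblasts lies within the range of their COL intervals, and the highest points are the COL macrophages at 866 and 327 CPM.

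T and NK cells, which are not known as a site of haem breakdown, served as a reference for RNA that is free in the suspension. Their Hmox1 level in COL was 27.7 CPM (95% counting interval 9.01 to 64.7) and 36.6 CPM (16.7 to 69.5), from 5 and 9 UMIs. Neurons, oligodendrocytes and OPC in COL were below that level in CPM, although the intervals overlapped for OPC (15.6 to 30.5 and 17.1 to 28.8) and for oligodendrocytes in both libraries and for neurons in COL 1 (8.43 to 10.5). In UMIs per nucleus the order turned, with 0.152 and 0.159 in neurons and 0.178 and 0.197 in OPC against 0.0943 and 0.114 in T and NK cells, while oligodendrocytes were below in COL 1 (0.0800) and above in COL 2 (0.135). As the order depended on the scale, the COL values of these types and their differences from NS were not read as expression by those cells. COL microglia, with intervals of 188 to 231 and 149 to 179 CPM, lay above it in both libraries. Astrocytes, with 55.6 to 85.6 and 27.4 to 45.0 CPM, overlapped it. When each nucleus was thinned to 1000 UMIs, so that deep and shallow nuclei could be compared, a Hmox1 UMI was found in 3.77% and 2.53% of T and NK nuclei, 0.859% and 1.10% of neurons, 1.72% and 1.86% of oligodendrocytes and 1.44% and 2.96% of OPC. Macrophages, at 36.5% (exact 95% interval 31.2 to 42.0) and 16.5% (13.2 to 20.1), were above the reference. Microglia reached 8.11% (5.54 to 11.4) and 7.99% (5.86 to 10.6), with intervals that overlapped those of the T and NK cells, which rest on 2 of 53 and 2 of 79 nuclei, although their level in CPM was higher. Astrocytes, at 6.22% and 2.30%, were not distinguishable from the reference at this depth. Without thinning, the shares were 56.3% and 37.0% of macrophages, 19.4% and 21.1% of microglia, 13.3% and 14.2% of neurons and 9.43% and 8.86% of T and NK cells, at median depths of 14083 and 14467 UMIs in neurons and 3041 and 3043 in T and NK cells. Intervals cover counting error only.

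The macrophage marker list (Mrc1, F13a1, Ms4a7, Pf4, Ccr2, Lyve1, Itga4 and Lyz2) was also higher in both COL libraries than in NS in neurons, oligodendrocytes, OPC, astrocytes and microglia, while in pericytes and fibroblasts the groups overlapped, at 155 and 78.3 against 107 and 120 CPM. All 8 markers had a UMI in COL microglia, where the summed level was 210 and 320 CPM against 10.8 and 83.6 CPM in NS. In neurons it was 29.4 and 60.9 against 15.1 and 14.6 CPM, and in macrophages 2904 and 3106 CPM, with Lyve1 at 0 in COL 2. As a percentage of the macrophages of the same library, Hmox1 and the marker list stood at 1.09% and 1.01% in COL 1 neurons and at 3.02% and 1.96% in COL 2 neurons. In microglia Hmox1 was at 24.1% and 50.0% of the macrophage level and the list at 7.24% and 10.3%. In astrocytes the figures were 8.02% and 10.8% for Hmox1 and 1.62% and 2.68% for the list. In oligodendrocytes they were 1.59% and 6.32% against 1.67% and 3.28%, and in OPC 2.56% and 6.83% against 1.36% and 2.67%. T and NK cells had the opposite pattern, with Hmox1 at 3.20% and 11.2% of the macrophage level and the list at 39.4% and 43.2%, while Mrc1 and Lyve1 were at 0 there in both COL libraries, so the list is not specific to macrophages in that type. The part of macrophage RNA in these levels was not tested.

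Hmox2 (ENSMUSG00000004070, chromosome 16, 4726361 to 4766742, plus strand) lay lower in COL in neurons, oligodendrocytes, OPC, astrocytes and microglia, but not in pericytes and fibroblasts, at 84.7 and 45.7 CPM in NS and 65.3 and 77.6 CPM in COL. In neurons it was at 35.5 and 35.4 CPM in NS and at 25.9 and 30.3 CPM in COL. In oligodendrocytes it was at 107 and 108 against 92.2 and 89.0 CPM, and in microglia at 112 and 123 against 95.1 and 80.4 CPM. Both COL libraries lay below both NS libraries in each of the 5 former types, yet the fitted log2 fold changes were small, from -0.16 ± 0.16 in oligodendrocytes to -0.48 ± 0.23 in astrocytes, and over all nuclei the groups overlapped. The gene overlaps Cdip1 on the opposite strand over 16395 bases, and whether counting used the strand is not given in the sources used here, so reads of the pair may not be separable. It also shares 941 bases with Gm15859 on the same strand, which stranded counting would not separate. Slc48a1, Flvcr1 and Lrp1 overlap opposite-strand genes over 29, 809 and 1323 bases.

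The shift in the split between the 2 oxygenases was large. Of all Hmox1 and Hmox2 UMIs, Hmox1 made up 0.668% and 0.693% in NS and 47.4% and 40.6% in COL. In COL microglia its share was 68.7% and 67.1%, from 0% of 83 and 88 UMIs in NS, and in macrophages it was 89.2% and 77.8%. In oligodendrocytes, whose Hmox2 level was high, it was lower, at 130 of 1002 UMIs in COL 1 and 210 of 1114 (18.9%) in COL 2. These are shares of UMIs and are not scaled by gene length.

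**Figure D2:**
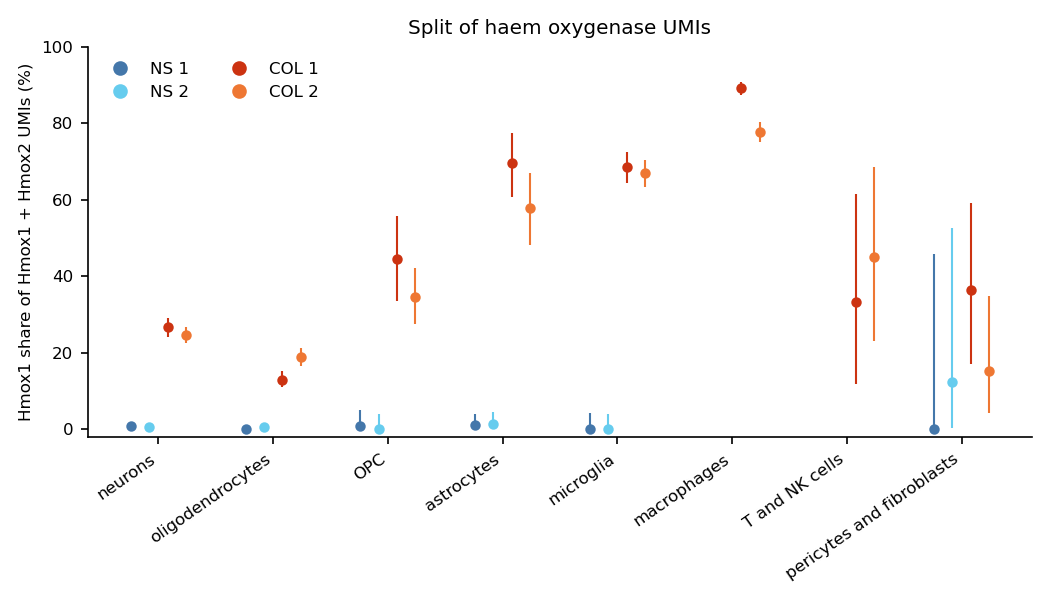
Hmox1 as a percentage of the summed Hmox1 and Hmox2 UMIs by cell type, with 1 point per library and exact 95% binomial intervals. NS points sit near 0 except in pericytes and fibroblasts (1 of 8 UMIs in NS 2), and the COL points reach 18.9% in oligodendrocytes and 89.2% in macrophages.

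The biliverdin reductases differed little between groups. Blvra (ENSMUSG00000001999, chromosome 2, 127070665 to 127097084, plus strand) in microglia was at 18.9 and 23.7 CPM in NS and at 33.4 and 33.5 CPM in COL, with a log2 fold change of 0.70 ± 0.31, and in neurons at 11.7 and 11.6 against 11.8 and 13.8 CPM. The microglial groups did not overlap. Blvrb (ENSMUSG00000040466, chromosome 7, 27447978 to 27466144, plus strand) in microglia was at 17.5 and 40.4 CPM in NS and at 25.4 and 28.2 CPM in COL, so that the groups overlapped, and in astrocytes at 11.7 and 12.5 against 15.2 and 16.1 CPM.

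Of the receptors, Cd163 (ENSMUSG00000008845, chromosome 6, 124304656 to 124330527, plus strand) was close to absent. It had 109 UMIs in the whole series, as 80 in NS and 29 in COL, and 55 and 11 of these were in astrocytes. In COL macrophages, the cells in which the receptor is best known, it had 3 and 0 UMIs. Astrocytes held 4.27 and 9.70 CPM in NS and 4.79 and 2.68 CPM in COL, which overlap. Lrp1 (ENSMUSG00000040249, chromosome 10, 127538161 to 127621148, minus strand), a large endocytic receptor, was at 443 and 426 CPM in NS microglia and at 368 and 458 CPM in COL microglia, and at 667 and 597 CPM in COL macrophages. Its groups did not overlap in OPC, at 284 and 352 against 213 and 260 CPM.

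The transporters differed from each other. Slc48a1 (ENSMUSG00000081534, chromosome 15, 97778520 to 97792692, plus strand) in oligodendrocytes was at 166 and 144 CPM in NS and at 66.7 and 118 CPM in COL. COL 1 was below COL 2 in the 5 types compared between groups, at 15.7 against 27.1 CPM in neurons, 22.3 against 44.5 in astrocytes, 23.0 against 48.3 in microglia and 15.5 against 29.4 in OPC, but not in pericytes and fibroblasts, at 46.6 against 42.3. The oligodendrocyte log2 fold change was -0.67 ± 0.23 and became -0.36 without COL 1 and -1.12 without COL 2. Flvcr1 (ENSMUSG00000066595, chromosome 1, 191005847 to 191026158, minus strand) in astrocytes was at 23.2 and 29.4 CPM in NS and at 32.7 and 46.1 CPM in COL, and in OPC at 32.8 and 35.8 against 30.5 and 25.0 CPM. Both COL libraries were above NS in the former type and below it in the latter. In neurons the groups overlapped, at 38.2 and 37.8 CPM in NS and 36.4 and 39.6 CPM in COL.

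**Figure D3:**
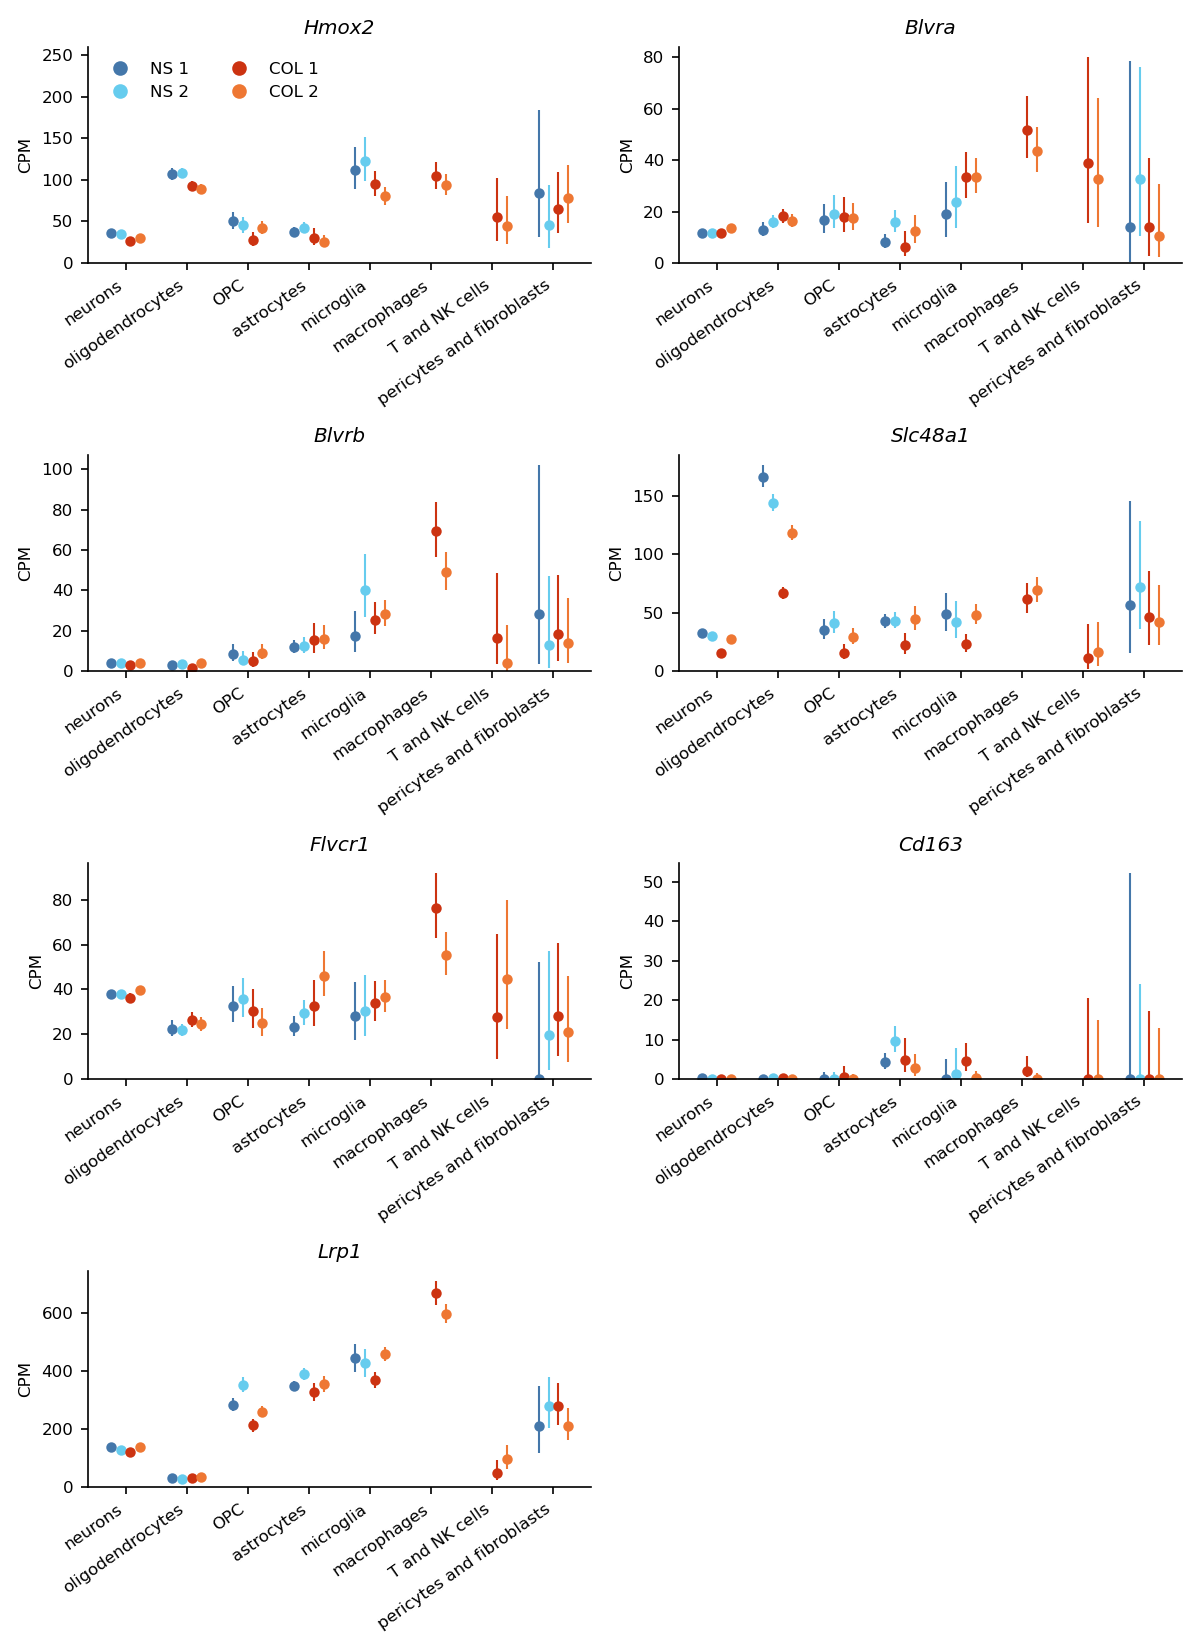
Levels in CPM of the 7 genes other than Hmox1 by cell type, with 1 point per library and 95% counting intervals, each panel on its own linear axis from 0. In oligodendrocytes the Slc48a1 points are at 166 and 144 CPM in NS and 66.7 and 118 CPM in COL, and the Hmox2 points of COL lie below those of NS in 5 types.

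Counted over the genes, Hmox1 and Hmox2 were the members whose COL and NS libraries did not overlap in each of the 5 cell types compared. For Flvcr1 this held in 4 types, for Slc48a1 and Blvra in 3, for Blvrb and Lrp1 in 1 and for Cd163 in 0. For genes with a mean of at least 5 CPM, groups of 2 libraries did not overlap for 58.4% of genes in neurons, 70.4% in oligodendrocytes, 61.9% in astrocytes, 65.4% in microglia and 61.2% in OPC, so lack of overlap alone was common. In pericytes and fibroblasts, at 0 to 60 UMIs per gene and library, the point values of the groups did not overlap for Hmox1, Flvcr1, Blvra and Slc48a1. The share over all genes was not computed for this type. At such counts the lack of overlap there was not read as a result about these genes. Cd163 passed the filter on low counts between COL and NS in all nuclei and in astrocytes and not in the other 4 types.

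Each type was tested against all remaining nuclei, within libraries, and p-values were adjusted over all genes (edgeR). The genes were chosen by their COL and NS levels, with earlier results of these data known. Their counts and p-values between cell types therefore describe these genes and are not an independent test. No test of Hmox1 is given here, since the NS libraries held 23 and 24 UMIs of it in all, so that its differences between types rest on the COL libraries in which it was chosen as high. In microglia 5 of the other 7 genes were higher and none lower, where 46.7% of all genes passed in either direction. On simulated counts the fit of this comparison recovered 52.5% of the changed genes and made 50 false calls, so single calls near the threshold are uncertain. Blvrb was higher by a log2 fold change of 2.22 ± 0.23 (adjusted p = 3.56e-05), Lrp1 by 1.37 ± 0.16 (adjusted p = 5.64e-05) and Hmox2 by 0.97 ± 0.14 (adjusted p = 0.00025). Blvra (0.82 ± 0.20, adjusted p = 0.00596) and Cd163 (2.35 ± 0.87, adjusted p = 0.0473) were the others. By marker score the call of Blvra was lost (adjusted p = 0.0784) and the Cd163 value turned to -0.18. The call of Cd163 was lost as well without COL 1 (adjusted p = 0.693), without COL 2 (adjusted p = 0.0815), without a filter on low counts (adjusted p = 0.0705) and with DESeq2 (adjusted p = 0.139).

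Oligodendrocytes had another set. Slc48a1 was higher by 2.20 ± 0.09 on the log2 scale (adjusted p = 6.62e-07, edgeR) and Hmox2 by 1.61 ± 0.08 (adjusted p = 1.07e-06), while Lrp1 was lower, at -2.24 ± 0.08 (adjusted p = 3.62e-07), as were Blvrb and Flvcr1. In all, 3 genes were higher and 3 lower there, where 67.0% of all genes passed. In each of the 4 libraries Slc48a1 had its highest level in oligodendrocytes among the named types with at least 20 nuclei, at 66.7 to 166 CPM, whereas the Hmox2 level in NS microglia (112 and 123 CPM) was at least as high as in NS oligodendrocytes (107 and 108 CPM). In COL 1 the Slc48a1 level of macrophages, 61.2 CPM, was close behind.

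Astrocytes were higher for Cd163 by 5.04 ± 0.45 (adjusted p = 8.13e-07, edgeR), for Blvrb by 1.43 ± 0.18 (adjusted p = 2.06e-05) and for Lrp1 by 1.36 ± 0.12 (adjusted p = 9.23e-07). There 3 genes were higher and 1 lower, against 45.7% of all genes. Neurons were lower for 4 genes and higher for Flvcr1 alone among the 7, at 0.30 ± 0.09 (adjusted p = 0.0213), where 54.9% of all genes passed, and the Flvcr1 call was lost without NS 1 (adjusted p = 0.0761) and without COL 2 (adjusted p = 0.0672). Slc48a1 was among the lower genes, at -1.28 ± 0.09 (adjusted p = 3.85e-05). In OPC 2 genes were higher and 1 lower, against 34.9% of all genes, with Lrp1 at 1.01 ± 0.12 (adjusted p = 5.74e-06) and Slc48a1 at -0.45 ± 0.12 (adjusted p = 0.00637). The OPC call of Blvra (0.44 ± 0.15, adjusted p = 0.036) was lost when any 1 library was left out, at adjusted p = 0.0673 to 0.161. In neurons Lrp1 (-0.25 ± 0.09, adjusted p = 0.0375) was lost without NS 1, NS 2 or COL 2, at adjusted p = 0.0873, 0.0762 and 0.184. Hmox2 in astrocytes (-0.44 ± 0.13, adjusted p = 0.0133) was lost without COL 2 (adjusted p = 0.0675).

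**Figure D4:**
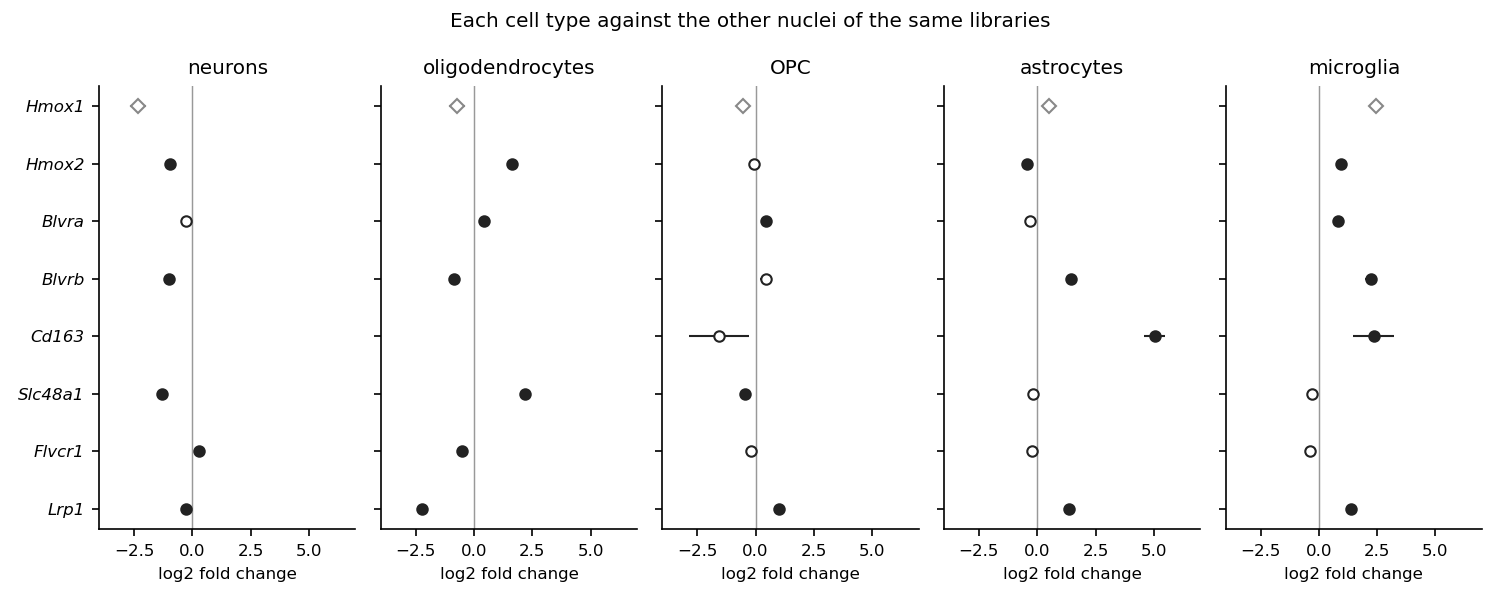
Log2 fold change of each of the 8 genes between a cell type and the remaining nuclei, fitted within libraries, with SE bars. Filled circles passed an adjusted p of 0.05 (edgeR), open circles did not, grey diamonds are Hmox1, shown without a test, and a missing point did not pass the filter on low counts. Slc48a1 and Hmox2 lie to the right in oligodendrocytes, Cd163 in astrocytes, and Blvrb in microglia.

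Macrophages and microglia were compared within the 2 COL libraries. The Hmox1 level of macrophages exceeded that of microglia by 1.52 ± 0.15 on the log2 scale, given without a test for the reason above, and the difference was 1.00 without COL 1 and 2.02 without COL 2. Blvrb was higher in macrophages by 1.08 ± 0.20 (adjusted p = 2.34e-05, edgeR), Flvcr1 by 0.85 ± 0.18 (adjusted p = 0.00025), Slc48a1 by 0.83 ± 0.19 (adjusted p = 0.000499) and Lrp1 by 0.61 ± 0.12 (adjusted p = 7.48e-05). That is 4 of 6 tested genes other than Hmox1, where 28.3% of all genes passed. Hmox2, at 0.18 ± 0.14 (adjusted p = 0.402), and Blvra, at 0.49 ± 0.19 (adjusted p = 0.0512), did not pass. With DESeq2 the calls of Blvrb (adjusted p = 0.081), Flvcr1 (0.191) and Slc48a1 (0.172) were lost. With nuclei named by marker score the calls of Lrp1 (adjusted p = 0.0886) and Slc48a1 were lost.

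Around these 8 genes, 49 genes in 9 lists cover haem synthesis, transport and carriage, iron release, bilirubin handling and the Nrf2 and Bach1 control of Hmox1. The lists were drawn up with earlier results of these data known. Their counts and p-values, between COL and NS and between macrophages and microglia, therefore describe the listed genes and are not an independent test. In microglia 29 were tested between COL and NS (edgeR's quasi-likelihood fit over all genes), 9 rose and 4 fell, where 28.7% of all tested genes passed in either direction, with a median log2 fold change of -0.07 beside 0.00 for all genes. Of the 8 tested Nrf2 targets, 5 rose. Txnrd1, a thioredoxin reductase, went from 32.3 and 26.5 to 87.6 and 88.5 CPM (log2 fold change 1.63 ± 0.24, adjusted p = 0.000407, edgeR), and Gsr, the glutathione reductase, from 21.5 and 18.1 to 55.9 and 59.6 CPM (1.59 ± 0.28, adjusted p = 0.00125). Gclc, which starts glutathione synthesis, rose by 1.06 ± 0.22 (adjusted p = 0.00372), and Por, which supplies electrons to haem oxygenase, by 0.94 ± 0.20 (adjusted p = 0.00367). Mafg, a partner of Nrf2 and Bach1, rose by 0.91 ± 0.18 (adjusted p = 0.00218). Slc7a11, Me1, Ftl1 and Nfe2l2, the gene of Nrf2, also rose, though by marker score the Me1 value turned to -0.06. The macrophage marker list was higher in COL microglia too (210 and 320 CPM against 10.8 and 83.6 CPM in NS). Of the genes that rose, Slc7a11, Ftl1, Gsr and Por were among those higher in macrophages than in microglia (3.25, 2.67, 1.96 and 1.41 on the log2 scale). Of the genes that fell, named next, Fth1 and Gstm1 were higher in macrophages (2.20 and 1.70) and Abcg2 was lower (-2.61). The part of macrophage RNA in the rises was not tested. Pgrmc1, a haem-binding membrane protein, fell from 136 and 107 to 25.9 and 37.7 CPM (-1.86 ± 0.24, adjusted p = 0.000143), and Gstm1, Fth1 and Abcg2 fell as well. Calls of Txnrd1, Gsr, Gclc, Por, Mafg and Pgrmc1 stood under all 10 alternatives, leaving out each library included. Those of Slc7a11, Me1, Ftl1, Gstm1 and Abcg2 were lost on leaving out at least 1 library, with adjusted p over the alternatives of up to 0.82, 0.888, 0.132, 0.191 and 0.655. The calls of Slc7a11, Me1, Gstm1 and Abcg2 were lost with DESeq2 and by marker score too. The call of Fth1 was lost with DESeq2 and by marker score, with an adjusted p of up to 0.159. The call of Nfe2l2, which is outside the 12 of largest change and was named after its values were seen (0.55 ± 0.17, adjusted p = 0.0274), was lost without NS 1 (0.0932), NS 2 (0.212) or COL 1 (0.102). For the ferritin heavy chain Fth1 the COL libraries stood apart, at 176 and 464 CPM against 735 and 1076 CPM, and pseudogene copies of the ferritins make their counts uncertain.

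In the other glia, Txnrd1 and Mafg rose in oligodendrocytes, astrocytes and OPC, and Pgrmc1 fell in all 3. In oligodendrocytes 6 of 38 tested pathway genes rose (Abcc3, Slc40a1, Me1, Txnrd1, Gsr and Mafg) and 2 fell (Pgrmc1 and Gstm1), where 22.6% of all tested genes passed. In astrocytes 6 of 30 rose (Txnrd1, Abcc1, Bach1, Mafg, Gsr and Slc7a11) and Pgrmc1 fell, where 17.3% of all tested genes passed. In OPC 2 of 28 rose and 4 fell (Alad, Fth1, Pgrmc1 and Cpox), where 18.8% of all tested genes passed. The counts in these 3 types were thus near the share of all genes. The macrophage marker list was higher in COL in each of the 3 too. It stood at 47.1 and 83.1 against 4.27 and 5.54 CPM in astrocytes and at 48.4 and 102 against 17.8 and 17.0 CPM in oligodendrocytes. In OPC it was at 39.5 and 83.1 against 10.9 and 7.05 CPM. The part of macrophage RNA in the rises was not tested. Alad and Cpox encode enzymes of haem synthesis. Of these calls, Pgrmc1 and Me1 in oligodendrocytes and Pgrmc1 and Mafg in astrocytes stood under all 10 alternatives, and each of the 6 in OPC was lost with DESeq2. Without NS 1 or NS 2 the oligodendrocyte calls of Txnrd1, Gsr and Mafg were lost, with adjusted p of up to 0.135, 0.183 and 0.314. In neurons 0 of 43 passed in edgeR, where 0.00429% of all tested genes did, 16 had an unadjusted p under 0.05, and DESeq2 called 2 of 48. Over all nuclei 12 of 47 rose (Hp, Ugt1a7c, Osgin1, Ugt1a6a, Abcc3, Ftl1, Slc40a1, Bach1, Gsr, Txnrd1, Mafg and Abcc1) and none fell, where 9.45% of all tested genes passed. Of these 12 calls 9 were lost without NS 1, 8 without NS 2, 7 without COL 1 and 1 without COL 2, and that of Abcc3 alone stood under all 9 alternatives. These counts come from libraries whose macrophage share also differed between groups, and more cells of a type cannot be told apart there from more RNA per cell.

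Macrophages exceeded COL microglia for 15 of 35 tested pathway genes and were lower for 2, where 28.3% of all tested genes passed. The calls of Srxn1, Maff, Gstm1 and Osgin1 were lost with DESeq2, and that of Osgin1 by marker score too. Their adjusted p over the alternatives was up to 0.0598, 0.371, 0.552 and 0.368. The iron storage genes Ftl1 and Fth1 were higher by 2.67 ± 0.13 (adjusted p = 2.3e-19, edgeR) and 2.20 ± 0.13 (adjusted p = 3.85e-17). Slc7a11, the cystine importer, was higher by 3.25 ± 0.24 (adjusted p = 1.66e-14), and Hp, which encodes haptoglobin, by 3.60 ± 0.60 (adjusted p = 6.17e-06), from 26 and 18 UMIs in macrophages. Abcg2, a haem and porphyrin exporter, was lower, at -2.61 ± 0.23 (adjusted p = 5.41e-12), and the other lower gene was Slc40a1 of the iron release list. These p-values rest on 2 COL libraries. The calls of Ftl1, Fth1, Slc7a11, Hp and Abcg2 stood under all 5 alternatives, fitted with edgeR or DESeq2. Their adjusted p rose there to as much as 0.0164 for Slc7a11 and 0.0231 for Hp.

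**Figure D5:**
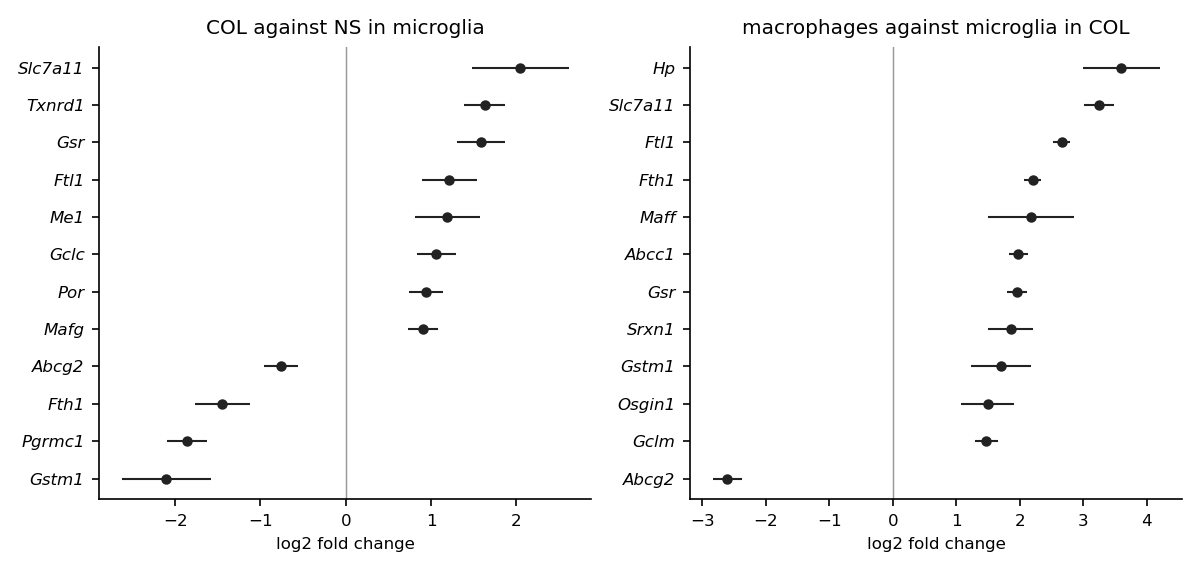
Log2 fold change with SE for the 12 pathway genes of largest change past an adjusted p of 0.05 (edgeR), between COL and NS in microglia (left) and between macrophages and microglia within COL (right). On the left, Slc7a11, Fth1, Abcg2, Me1 and Gstm1 did not pass with DESeq2 and did not pass by marker score. On the right, Srxn1, Maff, Gstm1 and Osgin1 did not pass with DESeq2. Slc7a11 and Txnrd1 lie highest on the left and Hp and Slc7a11 on the right, while Abcg2 is below 0 in both.

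Over 28 sums of a library and a cell type, the genes whose log2 level followed Hmox1 most closely among 13900 genes were Gpnmb (Pearson r = 0.936), Vim (0.914), Cd44 (0.912), Atf3 (0.911), Thbs1 (0.9), Spp1 (0.899), Lgals3 (0.895) and Lyz2 (0.888). These values describe the sums, which share libraries, and carry no p. Gpnmb, a glycoprotein of lipid-laden phagocytes, was at 0 in both NS microglial sums, at 42.6 and 108 CPM in COL microglia and at 959 and 1103 CPM in COL macrophages. Atf3, a stress-induced transcription factor, was at 38.6 and 34.2 CPM in COL microglia and 81.2 and 64.8 CPM in macrophages. Lyz2 is also in the macrophage marker list. Haemoglobin chain transcripts, a mark of red cell RNA, were not higher in COL, at 1.61 and 2.49 CPM against 3.37 and 7.81 CPM in NS.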

How the data were processed

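The 4 count tables, with a row per gene and a column per nucleus, hold UMI counts that the authors made with Cell Ranger 1.2.0 on mm10, per the labels and the submitters' processing notes. The deposited counts were not normalized. Nuclei with more than 50 genes and under 5% mitochondrial UMIs were kept (32291 of 32332). Clusters (Seurat 5.3.0, 5000 variable genes less 14 members and pathway genes, 15 components, resolution 0.8, 31 clusters) were named from markers detected in 25% of nuclei, at least 3 per type, with a score of at least 0.5 and a lead of 0.3. Nuclei were called doublets by the share of simulated doublets among their neighbours (doublets expected at 0.8% per 1000 nuclei). Clusters in which over 50% of nuclei were called doublets were set aside as mixed. Counts were summed per library and type and tested with edgeR 4.0.16 (quasi-likelihood, TMM, filterByExpr, Benjamini-Hochberg) and, as an alternative, DESeq2 1.42.0. The edgeR fits were also run on counts simulated with known changes. They recovered from 43% of the changed genes (COL against NS in all nuclei) to 84.5% (neurons against other nuclei). False calls numbered from 3 (macrophages against microglia) to 50 (microglia against other nuclei). CPM divides by all UMIs of the type and library. Gene positions come from GENCODE M21 (GRCm38), where all 40091 gene IDs matched.

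Members and lists were chosen with earlier results of these data known. All 8 members are named, with up to 12 called pathway genes per comparison by size of change and the 8 genes most like Hmox1. Beyond these, Nfe2l2 is named in microglia, and Por and Slc40a1 between macrophages and microglia. Library totals were 68746459 to 77557870 UMIs. PCR and pooling errors are not covered by the counting intervals.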

Additional observations from a re-analysis of the deposited data

Results flagged for a closer look

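Flvcr1, the haem exporter, lay on opposite sides of NS in different cell types. Both COL libraries were above both NS libraries in oligodendrocytes, astrocytes and microglia, and both were below them in OPC. Among genes with a mean of at least 5 CPM, 61.2% (OPC) to 70.4% (oligodendrocytes) did not overlap in these types. The counting interval of the pooled ratio of COL over NS was 1.25 to 1.97 in astrocytes. It included equal levels in microglia (0.861 to 1.74) and OPC (0.614 to 1.02) and began at 1.00 in oligodendrocytes (1.00 to 1.31). The lower level in OPC was thus not separated from counting error. The log2 fold change of COL against NS exceeded that of OPC by 0.57 in oligodendrocytes, 0.93 in astrocytes and 0.61 in microglia. The difference between types was not tested.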

How the results depend on the processing

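Counts of genes past the threshold between COL and NS moved by over 1.5 times with the tool. DESeq2 called 4565 genes in all nuclei (2416 with edgeR), 2471 for neurons (1), 1144 for astrocytes (2468), 1724 for microglia (3478) and 949 for OPC (2473), and 1467 between macrophages and microglia (3803). Without a filter on low counts the calls were 6893 in all nuclei and 5126 in neurons. RLE size factors gave 0 in neurons (edgeR, 6652 genes at an unadjusted p under 0.05), as did removing doublets (6545). Naming nuclei by marker score gave 1564 in astrocytes. Leaving out 1 library gave 1603 to 7012 calls in all nuclei, 0 to 3444 for neurons, 2074 to 7068 for oligodendrocytes, 1503 to 2734 for astrocytes, 2107 to 3726 for microglia and 1214 to 3440 for OPC. The cause was not tested. The replicate numbers do not pair the libraries by any label, and deviations of same-numbered libraries correlated from -0.158 in neurons to 0.191 in astrocytes. With the replicate number as a block, 5563 genes passed in all nuclei, 1056 in neurons and 3737 in astrocytes. By marker score, Me1 in microglia became -0.06 on the log2 scale, Cd163 in microglia against other nuclei -0.18 and Hmox2 between macrophages and microglia -0.05. Hmox2 in OPC against other nuclei (-0.08) ranged from -0.21 to 0.01 when 1 library was left out. Mean Hmox1 in COL microglia was 122 CPM by marker score (186). The mean share of nuclei with a Hmox1 UMI was 46.6% of COL macrophages as counted, and 20.2% of microglia as counted or 13.1% at 2000 UMIs. By Spearman rank, 5 of the 8 genes most like Hmox1 were shared. Calls of Lrp1 in neurons, Cd163 in microglia and Blvra in OPC stood under 2, 4 and 1 of 9 alternatives.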
